A study of Homo sapiens with 36 samples.

Results

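HMC3 cells, an established human cell line described as microglial, were exposed to 25 µM PFOS or to vehicle, and RNA was collected at 24 h. PFOS is perfluorooctane sulfonate, a persistent surfactant whose carbon chain carries fluorine in place of hydrogen. The comparison rests on 6 of the 36 samples of the series, 3 RNA-seq libraries at 25 µM PFOS and 3 in vehicle, taken by their labels and across all genes. Of 25344 gene symbols in the count table, 9847 had enough counts to be tested. Cells at 50 µM PFOS for 24 h are compared only in tests of a difference from the 25 µM effect or level. So are cells given 25 µM PFOS or vehicle for 24 h and then PFOS-free medium for a further 24 h (recovery). Their libraries, and those of 50 µM PFOS with recovery, also enter the fit of all 18 RNA-seq libraries. Every p-value of that fit therefore draws on a spread estimated over all groups. All groups are the same cell line, grown in DMEM with serum, and the vehicle is not named further. The labels call the replicates biological but do not say whether they were separate cultures or days, so the p-values reflect only how far the libraries at hand scatter, which may be technical. The study asks how transcripts of these cells respond to PFOS.

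The label of the cell line and its markers did not match. Of 18 microglial marker genes, 10 had 0 counts in all 6 libraries, among them AIF1, CX3CR1, ITGAM, TYROBP, SPI1 and the C1Q genes. The lysosomal gene CD68, which many cells express, averaged 26.0 ± 7.33 CPM at 25 µM and 19.6 ± 1.69 CPM in vehicle and was not called (edgeR adjusted p = 0.67). CPM is the count of a gene brought to a common library size, with library sizes scaled by TMM. Mesenchymal markers summed to 3020 to 3400 CPM at 25 µM and 3610 to 3760 CPM in vehicle, with COL1A1 giving 48.9%. Of the 12, COL3A1 had 0 counts in all 6 libraries, and DCN, LUM and S100A4 averaged below 1 CPM in both groups. THY1 was called lower among 8 tested, though in none of the 6 fits that left out 1 library. NT5E averaged 56.6 CPM at 25 µM and 35.2 CPM in vehicle and was not called. In a fit of the 6 libraries alone THY1 was called lower and NT5E higher (edgeR adjusted p 7.98e-05 and 0.0102). The part of the mesenchymal markers in the results was not tested. Epithelial markers, nearly all KRT18, summed to 777 to 826 CPM at 25 µM and 702 to 757 CPM in vehicle. Markers of neurons, astrocytes, oligodendrocytes, endothelium and lymphocytes summed to at most 11.3 CPM in any library.

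Much of what follows concerns the integrated stress response. In this pathway, stress-sensing kinases phosphorylate the initiation factor eIF2α, which slows general translation while the mRNA of the transcription factor ATF4 is translated more. ATF4 then drives genes that import amino acids, synthesise them, attach them to tRNA and, through CHOP and TRIB3, limit the response. The unfolded protein response of the endoplasmic reticulum (ER) and the antioxidant factor NRF2 are neighbouring programmes, and the SREBP and PPAR factors govern cholesterol synthesis and fatty acid use.

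Total counts were 1367642, 3679746 and 1560006 in the 25 µM libraries and 882883, 2753911 and 3435906 in the vehicle libraries, shallow for bulk RNA-seq. Ribosomal protein genes took 1.21% to 1.67% of counts at 25 µM and 1.34% to 1.47% in vehicle, and the 20 highest genes 9.69% to 9.89% and 9.74% to 11.3%. At 25 µM PFOS, 122 genes (1.24% of those tested) passed an adjusted p of 0.05 by edgeR's quasi-likelihood test with Benjamini-Hochberg adjustment, which is what "called" means here. They were 77 higher (0.782%) and 45 lower (0.457%), and 58 of the 122 differed by at least 2-fold. In all 122 the 3 libraries at 25 µM lay wholly above or wholly below the 3 in vehicle, which 22.9% of all tested genes did (11.4% above, 11.5% below). Fitted to the 6 libraries alone, in place of all 18 RNA-seq libraries of the series, the test called 234 higher (2.37% of 9861) and 182 lower (1.85%), of which 121 were among the 122. Leaving out 25 µM replicate 1, 2 or 3 left 62, 49 or 58 called genes. Leaving out vehicle replicate 1, 2 or 3 left 75, 60 or 63. These left-out fits kept the libraries of the other groups in the shared spread. A call lost in them therefore does not show that it hung on 1 library. Log2 fold changes below are 25 µM over vehicle with their standard error (SE), and a level is in CPM per library or as mean ± SD (n = 3).

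**Figure D1:**
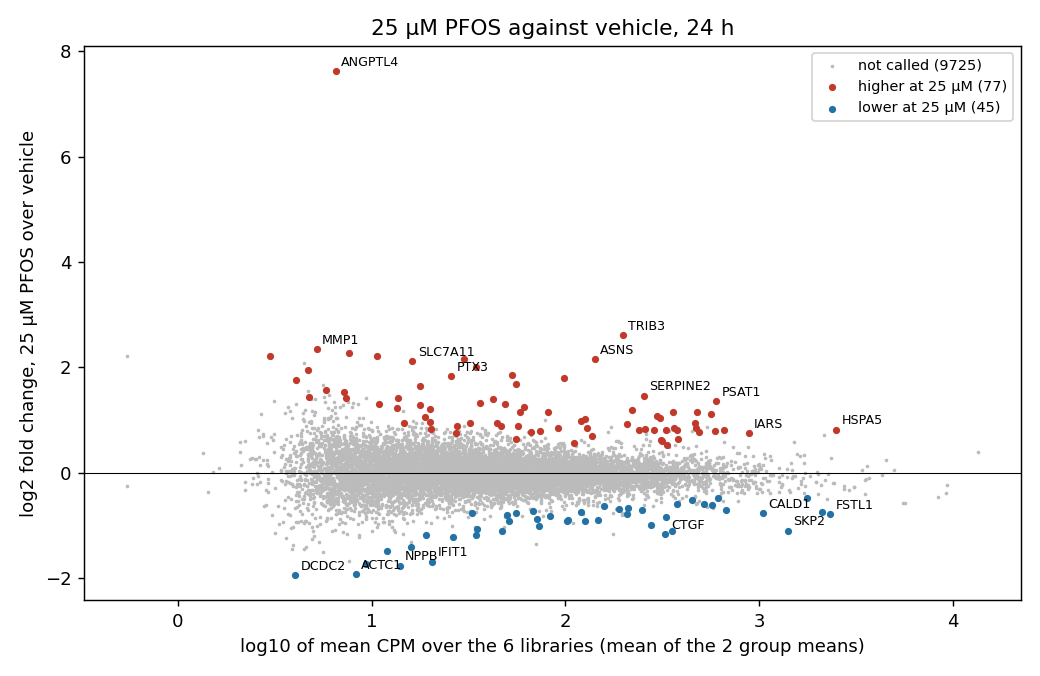
Log2 fold change of each tested gene (25 µM PFOS over vehicle, vertical axis) against its mean level (log10 CPM), with the 77 genes called higher in red and the 45 called lower in blue. The fitted value of ANGPTL4, which had no count in vehicle, depends on the prior count and is no bound.

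Regulators of the ATF4 programme were among the genes that rose. Of 14 tested regulators and effectors, 8 rose and 0 fell (57.1%, against 0.782% of all genes called higher). The list's median log2 fold change was 0.84, against -0.00411 for all genes. The list was drawn up with results of these data known, so these values describe its members and give no independent support. TRIB3, a pseudokinase that ATF4 and CHOP induce and that restrains them, lay at 287, 404 and 328 CPM at 25 µM against 44.7, 58.0 and 61.5 CPM in vehicle. It stands at chr20:380760-397559 and rose by 2.60 ± 0.25 on the log2 scale (edgeR adjusted p = 4.28e-06). CHAC1, an enzyme that degrades glutathione, lay at 77.1, 84.7 and 83.0 CPM at 25 µM against 32.9, 16.6 and 23.0 CPM in vehicle. All 3 of its PFOS libraries were above all vehicle libraries, and the gene rose by 1.85 ± 0.32 (edgeR adjusted p = 0.00267).

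SESN2, a sestrin that restrains mTORC1 when leucine is low, lay at 63.4, 109 and 79.9 CPM at 25 µM against 27, 23.8 and 28.9 CPM in vehicle, and rose by 1.68 ± 0.28. DDIT4, which restrains mTORC1 through the TSC complex and also responds to hypoxia, averaged 51.6 ± 4.85 CPM at 25 µM and 20.6 ± 2.70 CPM in vehicle, and rose by 1.32 ± 0.20. EIF4EBP1, the repressor of cap-dependent translation, rose by 0.97 ± 0.23, and XPOT, the exportin of tRNA, by 0.81 ± 0.14. ATF4 itself lay at 119.5, 109.8 and 120.1 CPM at 25 µM against 80.0, 53.3 and 65.7 CPM in vehicle. Its mRNA rose by 0.84 ± 0.18 (edgeR adjusted p = 0.0172), and its dimer partner CEBPG by 0.80 ± 0.15.

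DDIT3, which encodes CHOP, had 47.5 ± 4.81 CPM at 25 µM and 26.8 ± 2.83 CPM in vehicle, and its log2 fold change of 0.84 ± 0.26 did not pass (edgeR adjusted p = 0.177). PPP1R15A, the phosphatase subunit GADD34 that reverses eIF2α phosphorylation, was likewise not called at 0.74 ± 0.21 (edgeR adjusted p = 0.119). ATF3, a stress-induced repressor, had a log2 fold change of 0.07. In the fit of the 6 libraries alone, 11 of the 14 were higher, against 2.37% of all genes in that fit. Without 25 µM replicate 2 or without vehicle replicate 2, 5 remained called. ATF4 was called in 1 of the 6 fits that left out 1 library (highest adjusted p 0.18), EIF4EBP1 in 0 (0.247) and CEBPG in 4 (0.0944), while TRIB3, CHAC1, SESN2, DDIT4 and XPOT were called in all 6.

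Enzymes that make serine, glycine, asparagine and alanine rose with them. Of 22 tested genes of amino acid and one-carbon synthesis, 8 rose and 0 fell, with a median log2 fold change of 0.55. The 8 were 36.4% of those tested, against 0.782% of all genes called higher. ASNS, asparagine synthetase (chr7:97851677-97928441), lay at 206, 227 and 262 CPM at 25 µM against 44.7, 49.7 and 58.6 CPM in vehicle. It rose by 2.16 ± 0.20, a 4.46-fold difference (edgeR adjusted p = 3.22e-06). In the serine pathway, PHGDH, which takes the first step from glycolysis, lay at 305, 311 and 304 CPM at 25 µM against 115, 143 and 144 CPM in vehicle, and PSAT1, the aminotransferase that follows it, at 854, 903 and 829 CPM at 25 µM against 322, 355 and 333 CPM in vehicle. They rose by 1.18 ± 0.16 and 1.35 ± 0.13, with replicates close together in both groups. PSPH, the phosphatase that ends the pathway, was at 0.73 and not called (edgeR adjusted p = 0.0718).

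The mitochondrial arm of folate metabolism rose and its cytosolic counterpart did not pass the test. SHMT2, which splits serine in mitochondria, lay at 662, 661 and 642 CPM at 25 µM against 289, 290.4 and 309 CPM in vehicle and rose by 1.14 ± 0.15. MTHFD2, the mitochondrial methylene-tetrahydrofolate dehydrogenase, rose by 0.85 ± 0.15, and ALDH1L2, which oxidises mitochondrial formyl-tetrahydrofolate, by 2.00 ± 0.23. The cytosolic forms SHMT1 and MTHFD1 had log2 fold changes of -0.19 (edgeR adjusted p = 0.788) and 0.14 (0.88). The difference between the mitochondrial and cytosolic genes was not tested. GPT2, the mitochondrial alanine aminotransferase, rose by 1.03 ± 0.24, and BCAT1, the cytosolic branched-chain aminotransferase, by 0.52 ± 0.13. PCK2, the mitochondrial phosphoenolpyruvate carboxykinase, was outside the list and rose to 152 ± 19.9 CPM at 25 µM, against 43.8 ± 3.02 CPM in vehicle. Neither GPT2 nor BCAT1 was called in any of the 6 fits that left out 1 library (highest adjusted p 0.205 and 0.263). The other genes called in this paragraph and the last were called in all 6. In the fit of the 6 libraries alone GPT2 and BCAT1 had edgeR adjusted p of 1.06e-05 and 0.00168.

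Of 17 tested amino acid transporters, 4 rose and 0 fell (23.5%, against 0.782% of all genes called higher). The list's median log2 fold change was 0.38. SLC6A9, the glycine transporter GlyT1, lay at 39.6, 65.8 and 41.5 CPM at 25 µM against 9.41, 11.5 and 11.5 CPM in vehicle and rose by 2.17 ± 0.26. SLC7A11, the cystine-glutamate exchanger, lay at 25.2, 20.2 and 34.6 CPM at 25 µM against 4.70, 7.21 and 5.30 CPM in vehicle and rose by 2.12 ± 0.33. Its heavy chain SLC3A2, also the partner of SLC7A5, rose by 0.85 ± 0.14, and SLC38A1, a glutamine carrier, by 1.07 ± 0.13. SLC7A5, the leucine carrier LAT1, was at 0.87 (edgeR adjusted p = 0.119), and SLC38A2, a related glutamine carrier, at 0.24 (0.654). Neither passed, and the 4 called carriers were called in all 6 fits that left out 1 library. The fit of the 6 libraries alone called 7, against 2.37% of all genes called higher in that fit.

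Of the 20 tested cytosolic aminoacyl-tRNA synthetases, which charge tRNA with amino acids, 8 rose and 12 were not called. The share of 40% stood against 0.782% of all genes called higher, and the list's median log2 fold change was 0.47. The 8 were those for alanine (AARS, 1.12 ± 0.21), glycine (GARS, 1.04 ± 0.12), tyrosine (YARS, 0.84 ± 0.15), methionine (MARS, 0.81 ± 0.16), cysteine (CARS, 0.80 ± 0.15), serine (SARS, 0.78 ± 0.12), isoleucine (IARS, 0.75 ± 0.12) and asparagine (NARS, 0.59 ± 0.13). GARS lay at 423, 427 and 394 CPM at 25 µM against 202, 204 and 201 CPM in vehicle and YARS at 331, 329 and 333 CPM at 25 µM against 174, 195 and 186 CPM in vehicle. In both genes the PFOS libraries lay within a narrow band well above vehicle. Those for arginine (RARS, -0.04), lysine (KARS, -0.03), aspartate (DARS, -0.00) and histidine (HARS, 0.08) had log2 fold changes near 0, while tryptophan (WARS, 0.72; edgeR adjusted p = 0.0952) missed the threshold. The 6-library fit called 12, against 2.37% of all genes called higher in it, and without 25 µM replicate 2 only 4 passed. AARS and CARS were called in 5 and 5 of those 6 fits, MARS in 4 and NARS in 1 (highest adjusted p 0.144), and the other 4 in all 6.

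Of 3 tested secreted peptides of the stress response, 2 rose, and the third, adrenomedullin (ADM), was at -0.42 and not called (edgeR adjusted p = 0.421), though lower in the 6-library fit. STC2, stanniocalcin 2, lay at 471, 486 and 522 CPM at 25 µM against 234, 207 and 225 CPM in vehicle and rose by 1.15 ± 0.15, and ADM2, adrenomedullin 2, lay at 13.0, 12.1 and 13.2 CPM at 25 µM against 2.35, 3.60 and 1.77 CPM in vehicle and rose by 2.27 ± 0.34. Over these 5 lists, 30 of 76 distinct tested genes rose and 0 fell, 39.5% against 0.782% of all genes, with a median log2 fold change of 0.69. At an unadjusted p below 0.05, 44 were higher and 3 lower, and DESeq2 called 0 lower. These lists were drawn up with results of these data known, so the counts describe their members and give no independent support.

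**Figure D2:**
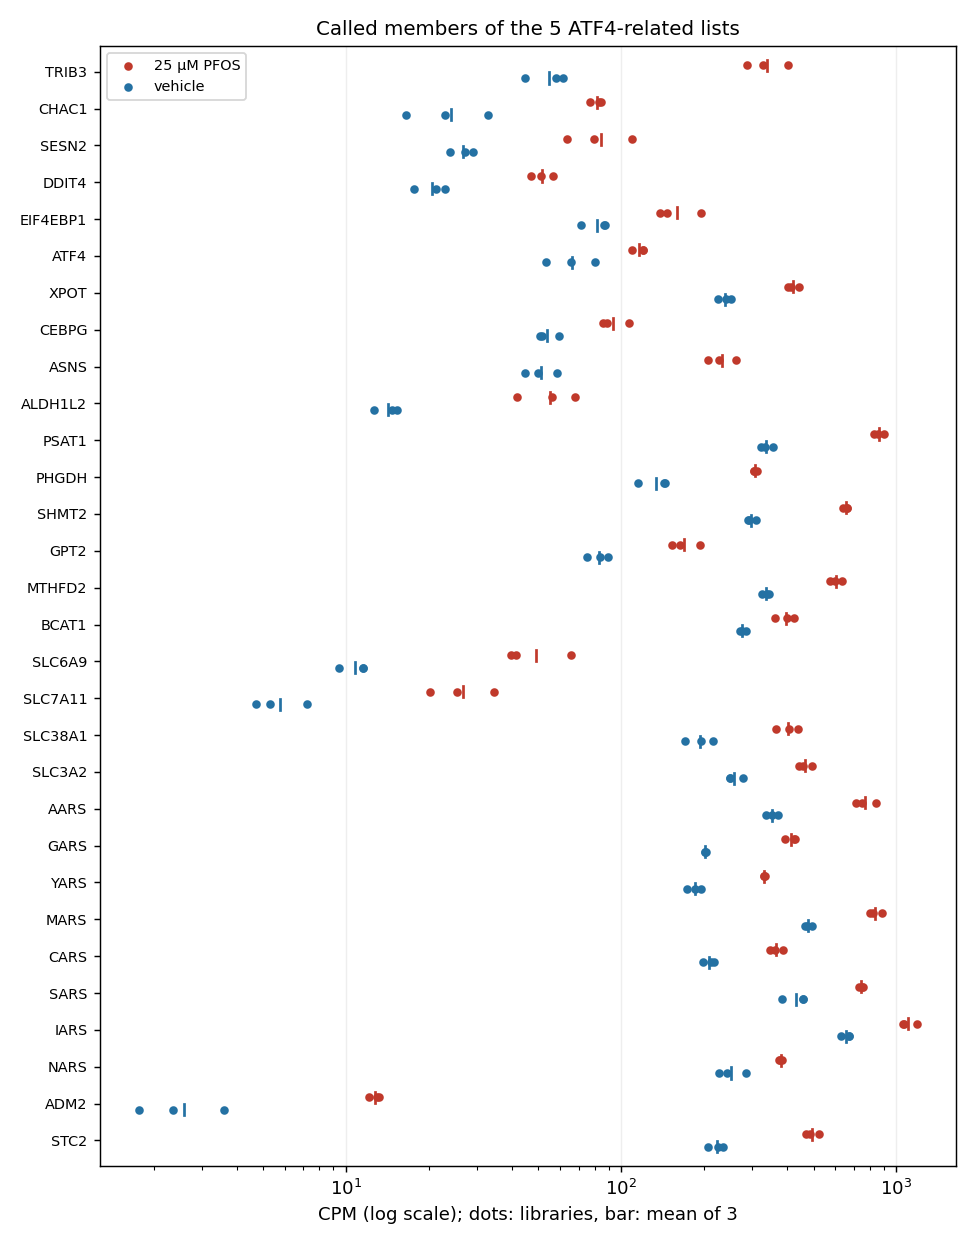
Level in CPM (log scale) in each library of the 30 called genes of the lists on ATF4 regulators, amino acid and one-carbon synthesis, transporters, tRNA synthetases and secreted peptides, with 25 µM PFOS in red above vehicle in blue and a bar at each mean. In every gene the 3 PFOS libraries lie to the right of the 3 vehicle libraries.

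ATF4 pairs with C/EBP proteins on a composite element, and the promoters of these genes were searched for it on both strands, in RefSeq promoters that span 250 bases before to 50 after the start (GRCh38.p14). The element TGATGNAAT was found in 2 of 59 promoters of genes called higher, 1 of 34 of genes called lower, 0.503% of the 8152 promoters of tested genes and 1.022% of all 27305. A form without the last base, TGATGNAA, was searched afterwards and chosen with those matches in view. It lay in 11 of the 59 promoters (18.644%), 2 of the 34 (5.882%), 1.619% of the tested and 3.673% of all, and every TGATGNAAT is also a TGATGNAA. Among the called genes of the 5 lists, 9 of the 21 with a RefSeq promoter (42.857%) held TGATGNAA. No match says only that these letters are absent from this window. The 9 follow, with 10 bases on each side where the promoter window allows, the match in capitals, and each read on the strand that begins TGATG.
ASNS (chr7:97872459-97872486): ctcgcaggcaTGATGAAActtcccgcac
CHAC1 (chr15:40953252-40953279): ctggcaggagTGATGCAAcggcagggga
SLC38A1 (chr12:46266503-46266530): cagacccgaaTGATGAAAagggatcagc
SLC3A2 (chr11:62881726-62881748): ggagcTGATGTAAggagtcctgc
AARS (chr16:70289676-70289703): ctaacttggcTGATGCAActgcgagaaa
CARS (chr11:3057408-3057435): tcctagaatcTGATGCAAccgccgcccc
IARS (chr9:92293693-92293720): cgcacggaggTGATGCAAcgcgctgaaa
NARS (chr18:57621805-57621832): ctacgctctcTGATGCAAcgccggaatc
BCAT1 (chr12:24949132-24949159): gtcttcctgcTGATGCAAtccgctaggt
The base at the open position was C in AARS, CARS, IARS, NARS, CHAC1 and BCAT1, A in ASNS and SLC38A1, and T in SLC3A2. HERPUD1 and TMEM154 held the other 2 matches among genes called higher, and DCDC2 and GBP1 the 2 among genes called lower. The match in ASNS lay 68 bases before the start, in the 250 bases shown here in full because ASNS was among the genes most raised, read along the gene (chr7:97872409-97872658, minus strand).
ASNS: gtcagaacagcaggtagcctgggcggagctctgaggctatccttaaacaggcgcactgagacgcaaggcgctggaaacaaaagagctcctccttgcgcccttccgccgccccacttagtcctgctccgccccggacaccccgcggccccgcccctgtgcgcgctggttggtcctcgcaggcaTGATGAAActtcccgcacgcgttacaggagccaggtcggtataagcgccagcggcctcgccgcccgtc

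Few ER chaperones passed the test, although 14 of the 28 tested genes of folding and degradation lay wholly above vehicle (11.4% of all genes did) and 0 wholly below. The list had 3 called higher and 0 lower (10.7%, against 0.782% of all genes called higher). Its median log2 fold change was 0.29. The 6-library fit called 7, against 2.37% of all genes called higher in that fit. HSPA5, the main ER chaperone BiP (chr9:125234853-125241343), lay at 3094, 3422 and 3038 CPM at 25 µM against 1742, 1910.4 and 1793 CPM in vehicle, and rose by 0.81 ± 0.11 (edgeR adjusted p = 0.000161). HERPUD1, a component of ER-associated degradation, rose by 0.81 ± 0.14 to 304 ± 18.8 CPM at 25 µM, against 174 ± 11 CPM in vehicle. DERL3, a channel component of the same route, rose by 1.42 ± 0.22, but its annotated span overlaps SMARCB1, and without the strand setting their reads cannot be told apart. The 3 were called in all 6 fits that left out 1 library.

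The chaperone HSP90B1 at 0.31, calreticulin (CALR) at 0.19 and the factor XBP1 at 0.44 were not called (edgeR adjusted p 0.5, 0.771 and 0.218). The ER stress element, CCAAT followed by 9 bases of any kind and CCACG, lay in the promoter of HSPA5 alone among the 59 with a RefSeq promoter, in 0.172% of tested and 0.081% of all promoters. The 250 bases before the HSPA5 start (chr9:125241344-125241593, minus strand, read along the gene) hold it in capitals, 66 bases before the start.
HSPA5: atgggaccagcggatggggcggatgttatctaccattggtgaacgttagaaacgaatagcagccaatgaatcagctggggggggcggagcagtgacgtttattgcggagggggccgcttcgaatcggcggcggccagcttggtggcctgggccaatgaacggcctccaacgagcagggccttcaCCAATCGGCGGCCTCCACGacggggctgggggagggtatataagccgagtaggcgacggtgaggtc

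NRF2 targets had a median log2 fold change of 0.27, against -0.00411 for all genes. Of 19 tested, 5 were called higher and 0 lower (26.3%, against 0.782% of all genes called higher). Besides SLC7A11, which the transporter list also holds, they were TXNRD1, thioredoxin reductase, at 0.78 ± 0.15, NQO1, a quinone reductase, at 0.69 ± 0.17, OSGIN1, an oxidative stress gene, at 1.41 ± 0.31, and SQSTM1, the autophagy receptor p62, at 0.81 ± 0.17. TXNRD1 lay at 559, 689 and 606 CPM at 25 µM against 307, 399.6 and 372 CPM in vehicle. Core members did not pass: HMOX1, heme oxygenase, was at 0.27, GCLC, which makes the glutathione precursor, at 0.03, and SRXN1, sulfiredoxin, at -0.21 (edgeR adjusted p from 0.881 to 0.994). Only 1 of the 5 remained called without 25 µM replicate 2, 2 without vehicle replicate 1 or 2 and 3 without any other library. WIPI1, an autophagosome protein, rose by 0.56 ± 0.14 (edgeR adjusted p = 0.0498). SQSTM1 and WIPI1 were the 2 called of 31 lysosome and autophagy genes (6.45%), none of which fell. SQSTM1 was called in 2 and WIPI1 in 0 of the 6 fits that left out 1 library. WIPI1 and SQSTM1 overlap other tested genes in the annotation.

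Lipid genes moved in both directions. ANGPTL4, a secreted inhibitor of lipoprotein lipase that PPAR factors induce (chr19:8364155-8374370), lay at 7.92, 13.5 and 17.6 CPM at 25 µM against 0, 0 and 0 CPM in vehicle. The 3 PFOS libraries held 89 counts and the vehicle libraries 0, so that the level was at least 30.4-fold higher, with the vehicle group set at a floor of 3 counts in all. Of 18 tested PPAR targets and fatty acid oxidation genes, 3 rose and 0 fell (16.7%, against 0.782% of all genes called higher). Besides ANGPTL4 they were ACADVL, the very long chain acyl-CoA dehydrogenase, at 0.92 ± 0.19 and ACAA2, a mitochondrial thiolase, at 0.78 ± 0.19. Without 25 µM replicate 1 or 2, or vehicle replicate 1 or 2, ANGPTL4 was the 1 of them still called. PLIN2, the lipid droplet protein that PPAR factors also induce, was at 0.33 (edgeR adjusted p = 0.69). ABCA1, the cholesterol exporter that LXR induces, rose by 1.06 ± 0.26 (edgeR adjusted p = 0.0498) and was called in 0 of the 6 fits that left out 1 library.

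Cholesterol synthesis leaned the other way. Of 26 tested genes of synthesis and uptake, 1 was called lower and 0 higher, a share of 3.85% against 0.457% of all genes. Wholly below vehicle lay 16 of the 26 and wholly above it 0 (11.5% and 11.4% of all genes), and the median log2 fold change was -0.36. HMGCS1, an early synthase of the pathway, had 90.4 ± 12.7 CPM at 25 µM and 156 ± 20.6 CPM in vehicle and did not pass (edgeR adjusted p = 0.215). STARD4, a sterol carrier, was at -0.72 ± 0.22 (edgeR adjusted p = 0.151). The 6-library fit called 11 of the 26 lower, against 1.85% of all genes in that fit. None was called in any fit that left out 1 library. TMEM97, a sterol-regulated membrane protein outside the list and chosen after its values were seen, fell to 302 ± 6.01 CPM at 25 µM, against 454 ± 43.3 CPM in vehicle, and was called in 1 of the 6 fits that left out 1 library. Fatty acid synthesis and desaturation had 0 of 17 called by edgeR, 2 lower at an unadjusted p below 0.05 and 0 by DESeq2, with FADS2 at -0.47 ± 0.24 and SCD at -0.05 ± 0.17.

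Secreted and matrix proteins were called in both directions. SERPINE2, the protease inhibitor nexin-1 (chr2:223975045-224039286), lay at 354, 395 and 374 CPM at 25 µM against 122, 143 and 141 CPM in vehicle. It rose by 1.46 ± 0.13 (edgeR adjusted p = 3.02e-06), the lowest adjusted p of the comparison. MMP1, the interstitial collagenase, lay at 10.1, 7.01 and 8.81 CPM at 25 µM against 2.35, 1.80 and 1.18 CPM in vehicle and rose by 2.34 ± 0.47, and F3, tissue factor, fell to 11.2 ± 1.51 CPM at 25 µM, against 27 ± 5.29 CPM in vehicle. LOX, which crosslinks collagen and elastin, lay at 567, 678 and 597 CPM at 25 µM against 329, 309 and 318 CPM in vehicle and rose by 0.95 ± 0.16, although its span overlaps SRFBP1. SPARC, a collagen-binding matrix protein, lay at 1599, 1612 and 1476 CPM at 25 µM against 2756, 2530.5 and 2619 CPM in vehicle. Its log2 fold change was -0.75 ± 0.12, and FSTL1, a related secreted protein chosen after its values were seen, had -0.79 ± 0.12. MMP1 was called in 4 and F3 in 1 of the 6 fits that left out 1 library, and the other 4 in all 6. Of 14 collagens tested, 0 were called by edgeR, and COL1A1 was at -0.11 ± 0.35. In the 6-library fit 3 were lower, against 1.85% of all genes in that fit. DESeq2 called 1, and at an unadjusted p below 0.05, 1 was higher and 3 lower.

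Genes of TGF-beta and YAP signalling were called in both directions, 1 higher and 2 lower of 19. That was 15.8% of the list, against 1.24% of all genes called in either direction. LTBP2, a latent TGF-beta binding protein, rose by 1.28 ± 0.30. TGFB2, the ligand, lay at 230.4, 237 and 237 CPM at 25 µM against 412, 446 and 408 CPM in vehicle and CTGF, a secreted YAP and TGF-beta target, at 207, 192 and 203 CPM at 25 µM against 675, 428 and 261 CPM in vehicle. CTGF had a wide spread in vehicle, where replicate 1 was high, and its log2 fold change was -1.17 ± 0.28 (edgeR adjusted p = 0.0388), against -0.84 ± 0.18 for TGFB2. Another YAP target, CYR61, was at -0.32 ± 0.16 and not called. LTBP2 was called in 2, CTGF in 1 and TGFB2 in 0 of the 6 fits that left out 1 library. In the fit of the 6 libraries alone their edgeR adjusted p was 0.00527, 0.00173 and 9.37e-06.

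Some of the genes that fell encode actins or proteins that bind actin, named singly here with no list behind them. By the rule for the 15 largest decreases, ACTC1, cardiac alpha-actin, was at -1.93 ± 0.38 and ACTG2, a smooth muscle actin, at -1.22 ± 0.28. Their sequences are close to those of other actins, so the division of reads is uncertain. Chosen after their values were seen, CALD1 (caldesmon, 721, 790.5 and 795 CPM at 25 µM against 1363, 1312 and 1268 CPM in vehicle), TPM4 (a tropomyosin, -0.62 ± 0.12) and LIMA1 (the actin bundler EPLIN, -0.72 ± 0.13) also fell. CALD1 had a log2 fold change of -0.77 ± 0.11 (edgeR adjusted p = 0.000499). CALD1 and LIMA1 were called in all 6 fits that left out 1 library, TPM4 in 4, ACTC1 in 3 and ACTG2 in 0. ACTA2, the alpha smooth muscle actin, was at 1.37 and not called (edgeR adjusted p = 0.253).

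The remaining largest decreases had varied roles. SKP2, the F-box protein that marks p27 for destruction, lay at 873, 862 and 934 CPM at 25 µM against 2362, 1595 and 1796 CPM in vehicle and fell by 1.11 on the log2 scale (SE 0.20), with NADK2 overlapping its span. MEST, an imprinted hydrolase-like gene, fell to 224 ± 10.5 CPM at 25 µM, against 482 ± 64.3 CPM in vehicle, and LBH, a transcriptional cofactor, to 29.1 ± 7.13 CPM at 25 µM, against 64.6 ± 4.79 CPM in vehicle. KRT17, a keratin, fell to 21.2 ± 1.29 CPM at 25 µM, against 48.0 ± 7.18 CPM in vehicle, ABCA8, a lipid transporter, to 21.8 ± 6.46 CPM at 25 µM, against 48.4 ± 10.0 CPM in vehicle, and CRHBP, which binds corticotropin-releasing hormone, to 4.23 ± 0.414 CPM at 25 µM, against 14.5 ± 1.06 CPM in vehicle. PTPRQ, a receptor phosphatase, and DCDC2, a doublecortin-domain protein, had log2 fold changes of -1.48 ± 0.28 and -1.95 ± 0.42. NPPB, the B-type natriuretic peptide, was at -1.77 ± 0.43, and its clearance receptor NPR3, chosen after its values were seen, at -0.81 ± 0.18. Called in all 6 fits that left out 1 library were SKP2 and KRT17. LBH was called in 3 of them, PTPRQ in 5, CRHBP in 2, NPR3 in 2 and ABCA8 in 1. MEST, DCDC2 and NPPB were called in none. In the fit of the 6 libraries alone the edgeR adjusted p of MEST, DCDC2 and NPPB was 1.55e-06, 0.0135 and 0.00152.

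**Figure D3:**
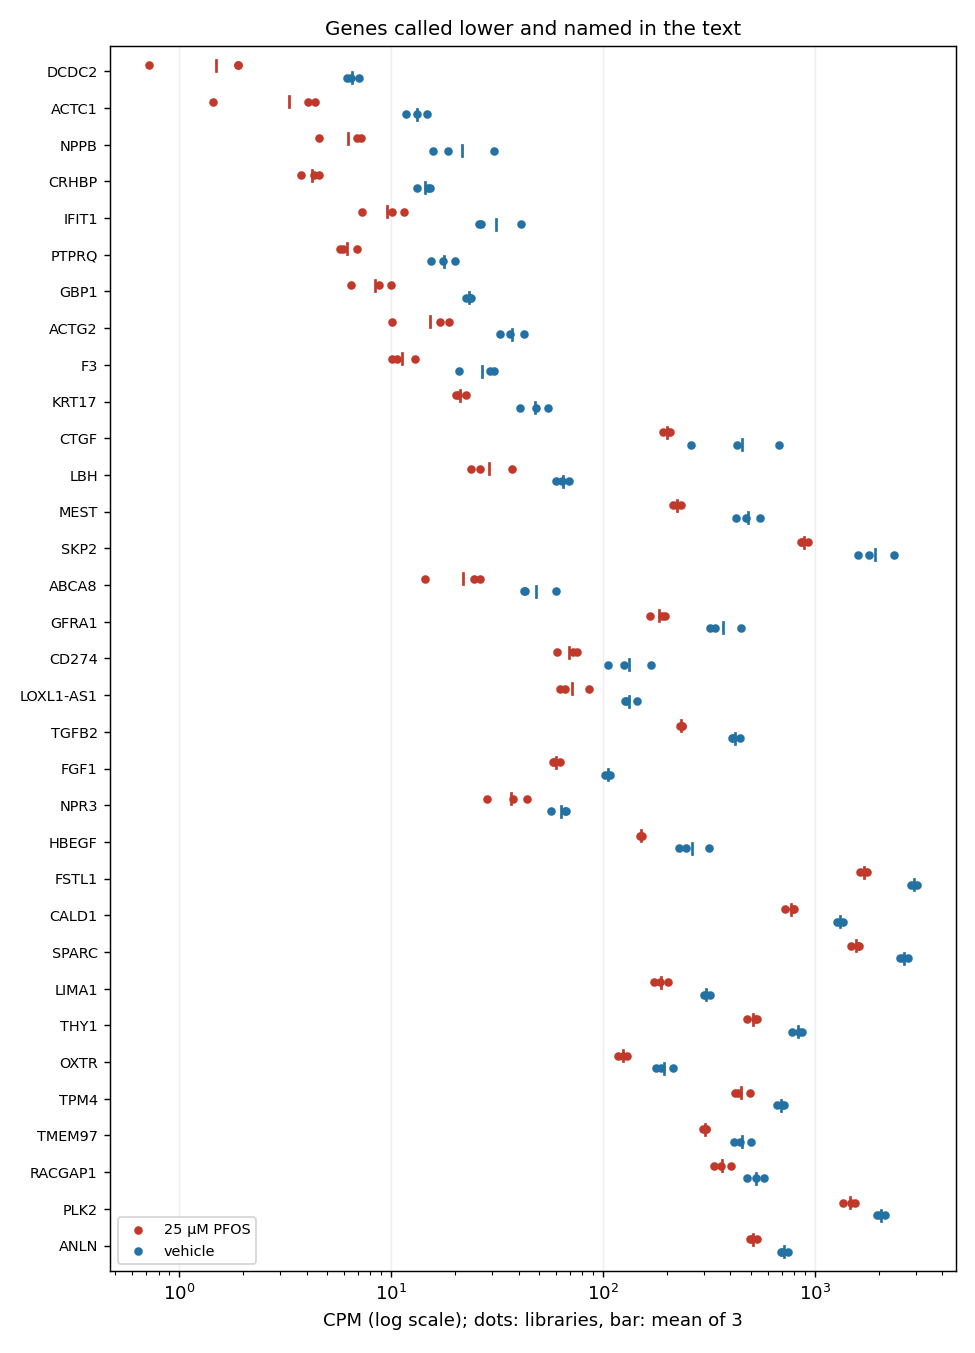
Level in CPM (log scale) in each library of the genes called lower that the text names, with 25 µM PFOS in red above vehicle in blue and a bar at each mean. In every gene the 3 PFOS libraries lie to the left of the 3 vehicle libraries, and CTGF spreads widest in vehicle.

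Among the largest increases, PTX3, a secreted pattern-recognition protein, lay at 41.0, 41.3 and 40.9 CPM at 25 µM against 5.88, 10.8 and 14.4 CPM in vehicle. It rose by 1.83 ± 0.26, the 1 called of 10 tested inflammatory mediators (10%, against 0.782% of all genes called higher). SLFN5, a Schlafen family member, rose by 1.64 ± 0.25, ST6GAL1, a sialyltransferase, by 1.95 ± 0.43, and LURAP1L by 2.21 ± 0.38. Chosen after their values were seen, GTPBP2, a ribosome-rescue GTPase, rose by 1.39 ± 0.21, LONP1, the mitochondrial protease, by 1.16 ± 0.26, and ASS1, argininosuccinate synthetase, by 0.94 ± 0.19. SLC4A5, CD44, PRNP and GREM1, outside the naming rule, were also chosen after their values were seen. SLC4A5, a bicarbonate transporter, was called higher at 1.30 ± 0.30, but overlaps MTHFD2. CD44 and PRNP, the hyaluronan receptor and the prion protein, rose by 0.63 ± 0.13 and 0.62 ± 0.13, and GREM1, a BMP antagonist, by 0.84 ± 0.15. Of these, PTX3, SLFN5 and GTPBP2 were called in all 6 fits that left out 1 library. GREM1 and LURAP1L were called in 5, ASS1 and CD44 in 3 and ST6GAL1 in 1. LONP1, PRNP and SLC4A5 were called in none, with edgeR adjusted p of 1.34e-05, 0.000228 and 0.0147 in the 6-library fit.

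Interferon-stimulated genes leaned downward with 1 call, 3.45% of those tested, against 0.457% of all genes called lower. IFIT1, which binds foreign RNA, lay at 11.5, 7.28 and 10.1 CPM at 25 µM against 41.2, 26.7 and 25.9 CPM in vehicle, and its log2 fold change was -1.69 ± 0.27 (edgeR adjusted p = 0.00149). Its span overlaps LIPA. Of 29 tested, 10 lay wholly below vehicle and 2 wholly above (11.5% and 11.4% of all genes), and the median was -0.40. IFIT2, a paralog, had 16.9 ± 6.64 CPM at 25 µM and 35.3 ± 4.01 CPM in vehicle and missed the threshold (edgeR adjusted p = 0.0514). GBP1, an interferon-induced GTPase, was named as a large decrease at -1.41 ± 0.32. IFI16 and TRIM25, a DNA sensor and a ligase that interferon also induces, chosen after their values were seen, rose by 0.97 ± 0.23 and 0.94 ± 0.19. IFIT1 was called in all 6 fits that left out 1 library, TRIM25 in 3, and GBP1 and IFI16 in none. MHC class I genes had 0 of 14 called by edgeR, 0 at an unadjusted p below 0.05 and 0 by DESeq2.

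The mitosis, p53 and replication lists each held 1 call or 0. Of 24 mitosis genes, ANLN, the anillin of the cytokinetic ring, was the 1 called (4.17%, against 0.457% of all genes called lower). It had 510.4 ± 21.8 CPM at 25 µM and 714 ± 29.9 CPM in vehicle, a log2 fold change of -0.48 ± 0.12. Of the 24, 12 lay wholly below vehicle and 0 above (11.5% and 11.4% of all genes). RACGAP1, also of cytokinesis and chosen after its values were seen, was at -0.53 ± 0.12. Of 21 p53 targets, PLK2, a polo-like kinase, was the 1 called (4.76%), lower at -0.49 ± 0.12. CDKN1A was at 0.52 ± 0.18 and TNFRSF10B, a TRAIL receptor, at 0.63 ± 0.18, neither called with all 18 libraries. The median of the 21 was 0.22, with 8 wholly above vehicle and 2 below. The 6-library fit called 3 higher, CDKN1A and TNFRSF10B among them, and 1 lower (2.37% and 1.85% of all genes). Replication genes had 0 of 28 called by edgeR, 0 at an unadjusted p below 0.05 and 0 by DESeq2. Ligands and receptors that fell, chosen after their values were seen, were FGF1 at -0.82 ± 0.14, OXTR, the oxytocin receptor, at -0.64 ± 0.14, and GFRA1, a GDNF co-receptor, at -0.99 ± 0.23. Of the 6 genes called in this paragraph only FGF1 was called in any fit that left out 1 library, and it was in all 6. In the 6-library fit the edgeR adjusted p of ANLN, RACGAP1, PLK2, OXTR and GFRA1 was 0.0035, 0.00483, 0.00297, 0.00155 and 2.82e-05.

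In 15 lists of 251 distinct genes, edgeR's quasi-likelihood test made 0 calls. In the 6-library fit the same test called 9 of these genes higher and 7 lower, among them BCL2L11, EGR1 and DUSP1. Of all genes in that fit, 2.37% were called higher and 1.85% lower. At an unadjusted p below 0.05, 10 of the 251 were higher and 13 lower, a share close to that of all genes (867 of 9847). DESeq2 called 2 (in the collagen and MAPK feedback lists), and 149 of all 9847. The lists were fatty acid synthesis (17 tested), MHC class I (14), immediate early genes (14), MAPK feedback (8), the BCL2 family and death receptors (12), replication (28), cytosolic heat shock proteins (20), proteasome subunits (31), respiratory chain (35), glycolysis (21), collagens (14), integrins (9), histone acetylation (21), xenobiotic targets (5) and metallothioneins (2). EGR1 and DUSP1, immediate early genes, had log2 fold changes of -1.16 ± 0.37 and -1.36 ± 0.37, but vehicle replicate 1 was far above the other vehicle libraries for both, at 432 against 155 and 148 CPM for EGR1 and at 169 against 85.8 and 52.7 CPM for DUSP1. HSP90AA1 was at -0.14 ± 0.12, GAPDH at 0.05 ± 0.14 and ATP5B, an ATP synthase subunit, at 0.04 ± 0.12. BCL2L11, the death activator BIM, was at 1.40 ± 0.45 and MT2A, a metallothionein, at 0.62 ± 0.35, neither called with all 18 libraries. In bulk RNA, fewer cells of a kind and less RNA per cell cannot be told apart.

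**Figure D4:**
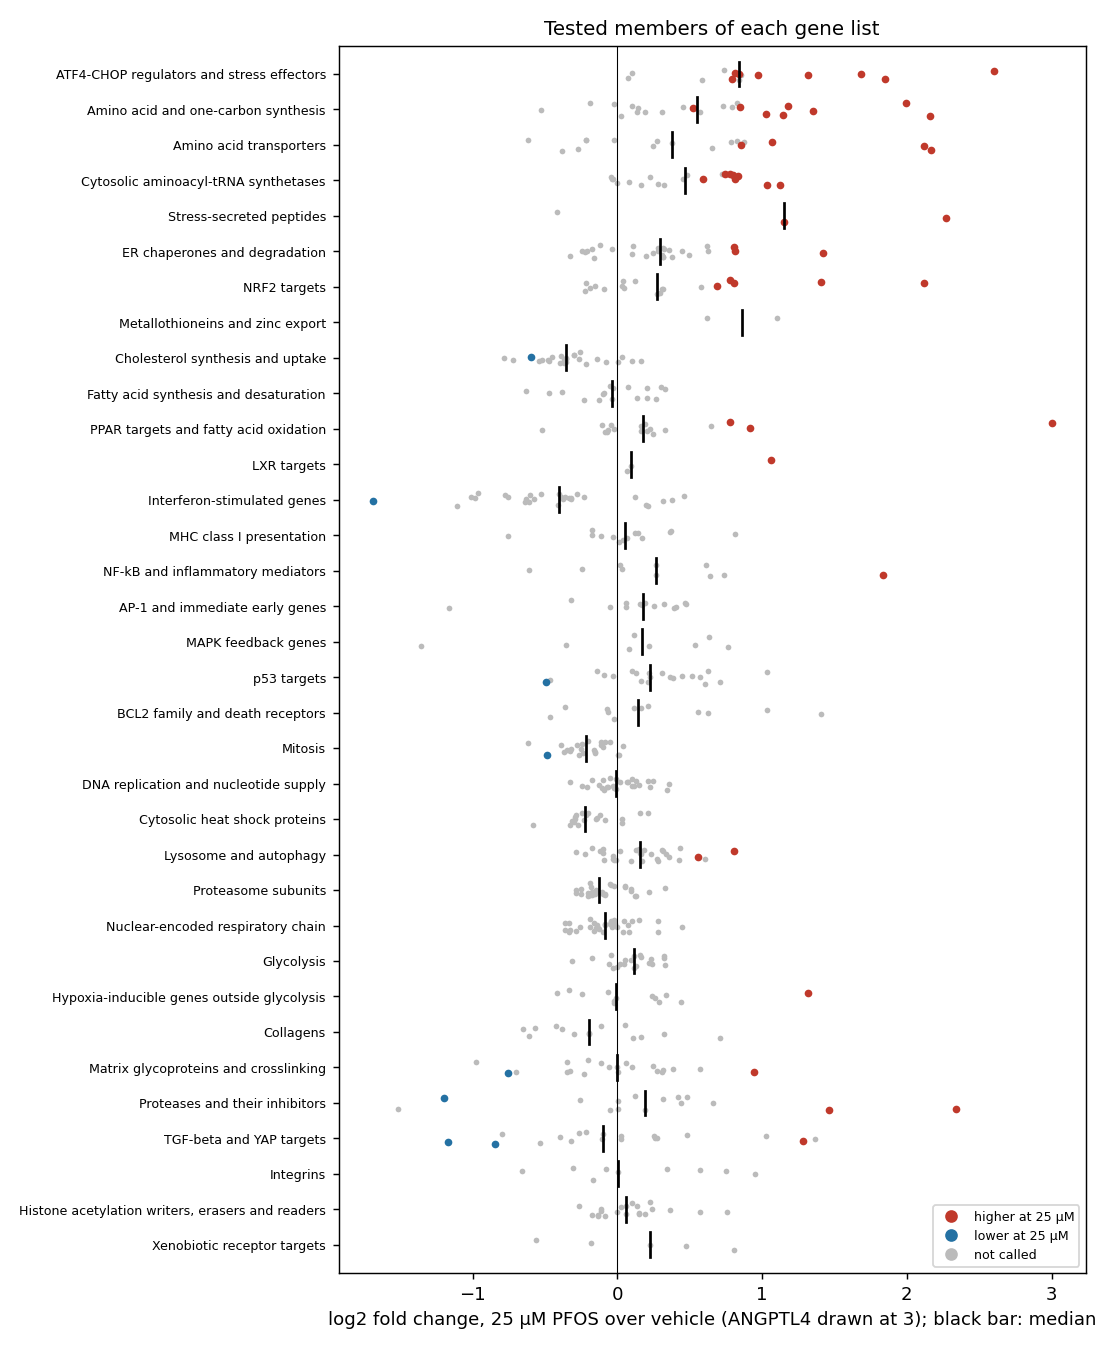
Log2 fold change (25 µM PFOS over vehicle) of each tested member of each gene list, with called genes in red (higher) or blue (lower), uncalled genes in grey and a black bar at the list's median. The 5 lists at the top hold 30 genes called higher and 0 called lower, and ANGPTL4 is drawn at 3.

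At 50 µM the same genes were set beside their 25 µM levels, and 729 genes (7.4% of those tested) differed between the doses. The 50 µM against 25 µM test shares the 25 µM libraries with the comparison above, so the levels are given side by side, for vehicle, 25 µM and 50 µM in turn. Several enzymes of amino acid supply were not called between the doses. PSAT1 had 337 ± 16.6, 862 ± 37.9 and 920.3 ± 41.8 CPM (50 against 25 µM, log2 0.09 ± 0.13; edgeR adjusted p = 0.739), PHGDH 134 ± 16.1, 306 ± 3.82 and 328 ± 3.87 CPM (0.782) and YARS 185 ± 10.5, 331 ± 1.80 and 301 ± 20.4 CPM (0.653). GPT2 had 82.9 ± 7.30, 169.6 ± 21.1 and 134 ± 6.97 CPM (0.447) and ASNS 51.0 ± 7.04, 232 ± 28.1 and 338 ± 20.8 CPM (0.0824). A p that misses the threshold does not show that levels were alike: the log2 difference of ASNS was 0.54 ± 0.19. ALDH1L2, BCAT1 and GARS were called higher at 50 than at 25 µM, by 1.06 ± 0.20, 0.54 ± 0.13 and 0.39 ± 0.11 (edgeR adjusted p 0.00215, 0.0105 and 0.0416).

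Of the 8 ATF4 regulators called at 25 µM, 3 rose further at 50 µM and 5 were not called between the doses. Among all 77 genes called higher at 25 µM, 37 rose further at 50 µM. The 28 genes of ER folding and degradation held 8 called above their 25 µM level at 50 µM and 0 called below it. For all tested genes these shares were 3.79% above and 3.62% below. TRIB3 had 54.7 ± 8.89, 339.7 ± 59.6 and 849 ± 87.5 CPM, higher at 50 than at 25 µM by 1.32 ± 0.23 (edgeR adjusted p = 0.00113), and DDIT3 had 26.8 ± 2.83, 47.5 ± 4.81 and 149 ± 12.6 CPM (0.000167). HSPA5 had 1815 ± 86.4, 3185 ± 208 and 6250.3 ± 165 CPM, a log2 difference of 0.97 ± 0.11 (edgeR adjusted p = 7.57e-06). Of the 2 called secreted peptides, STC2 was higher at 50 µM and ADM2 was not called (edgeR adjusted p = 0.626). STC2 had 222 ± 13.7, 493 ± 26.2 and 947 ± 47.5 CPM and SLC3A2 257 ± 16.6, 466 ± 26.5 and 839 ± 54.3 CPM, with edgeR adjusted p of 0.000258 and 0.000459. PTX3 had 10.4 ± 4.29, 41.1 ± 0.198 and 232 ± 28.7 CPM and MMP1 1.78 ± 0.588, 8.63 ± 1.54 and 139.9 ± 5.76 CPM, log2 differences of 2.50 ± 0.22 and 4.07 ± 0.29 (edgeR adjusted p 3.84e-07 and 1.71e-08).

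Of the genes lower at 25 µM, CALD1 had 1314 ± 47.4, 769 ± 41.5 and 306 ± 13.2 CPM, lower again at 50 µM with a log2 difference of -1.33 ± 0.12 (edgeR adjusted p = 3.84e-07). SPARC had 2635 ± 113, 1562 ± 75.0 and 1225 ± 71.9 CPM, a difference between the doses that did not pass (edgeR adjusted p = 0.0863). CD274, the immune checkpoint ligand PD-L1, and HBEGF, an EGF receptor ligand, were chosen after their values were seen and took another course. CD274 had 133 ± 31.7, 69.5 ± 7.94 and 108 ± 8.98 CPM, and HBEGF 264 ± 46.5, 152 ± 1.86 and 240.1 ± 19.4 CPM. Both were lower at 25 µM than in vehicle (edgeR adjusted p 0.0105 and 0.0172) and higher at 50 than at 25 µM (0.0416 and 0.0188). Their vehicle replicate 1 was the highest library, and without it their adjusted p against vehicle was above 0.05. They were called in 3 and 2 of the 6 fits that left out 1 library.

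**Figure D5:**
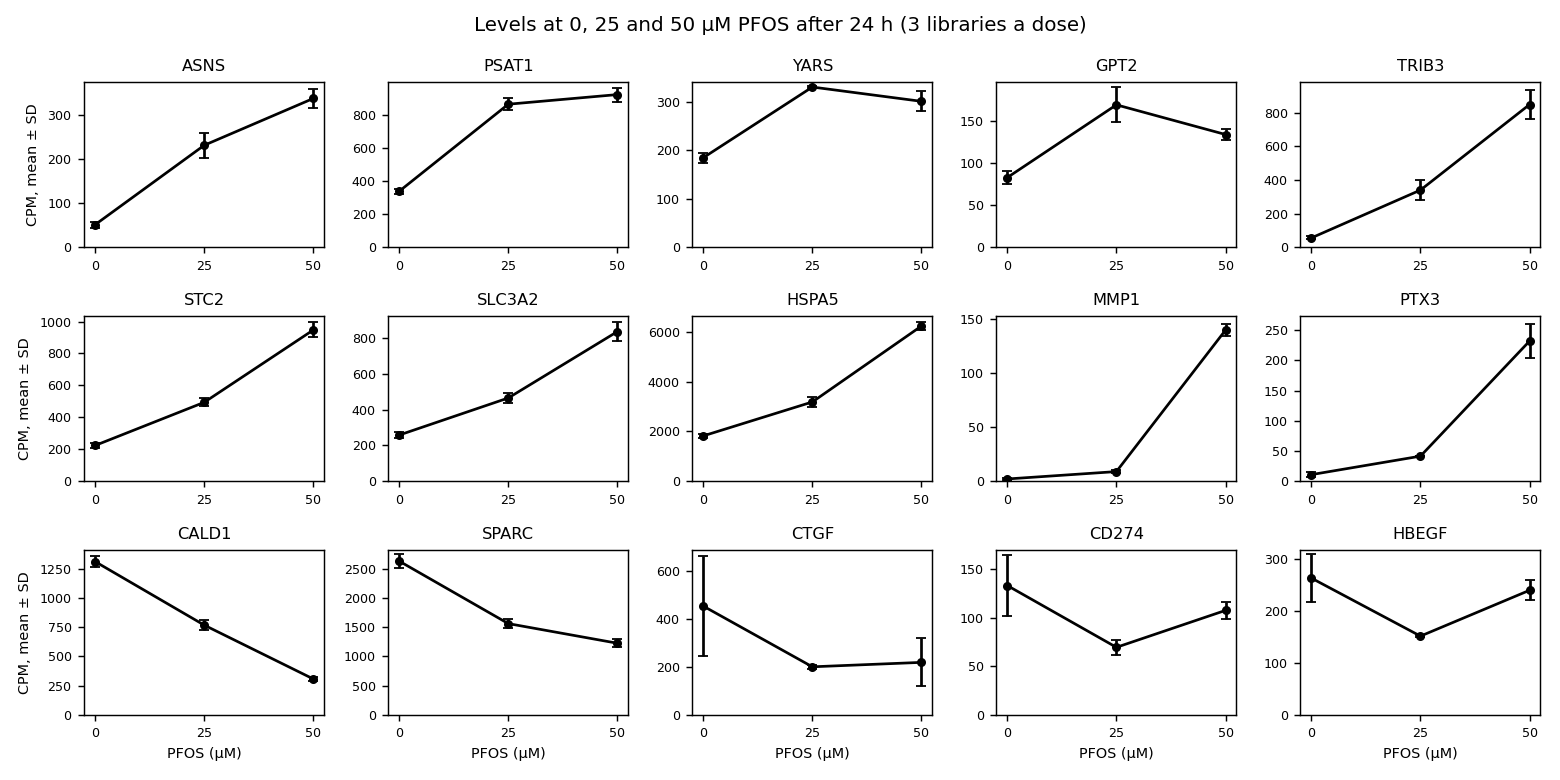
Mean level ± SD (CPM, n = 3) of 15 named genes in vehicle (0), at 25 and at 50 µM PFOS after 24 h. PSAT1, YARS and GPT2 were not called between 25 and 50 µM, HSPA5, STC2, TRIB3, MMP1 and PTX3 are highest at 50 µM, and CD274 and HBEGF are lowest at 25 µM.

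After recovery the 25 µM effect differed from that at 24 h for 2 genes (0.0203% of those tested) by edgeR's test of the difference. They were SERPINE2 and ASNS. SERPINE2 had 189 ± 9.95 CPM after 25 µM and 186 ± 16.2 CPM after vehicle, and its 25 µM effect after recovery was 1.43 lower on the log2 scale than at 24 h (SE 0.18; edgeR adjusted p = 0.00147). ASNS had 153 ± 8.09 CPM after 25 µM and 126 ± 33.5 CPM after vehicle, and its effect was 1.88 lower (SE 0.28; edgeR adjusted p = 0.00534). At 24 h both genes were above all vehicle libraries in 3 of 3 PFOS libraries. The unadjusted p of the difference was below 0.05 for 458 of the 9847 tested genes. That is no more than a threshold of 0.05 would pass if no gene differed. DESeq2 called 37. Other members kept higher means without a call after recovery, such as TRIB3 with 123 ± 27.8 CPM after 25 µM and 67.3 ± 14.7 CPM after vehicle and SLC3A2 with 488 ± 47.2 CPM after 25 µM and 317 ± 11.6 CPM after vehicle. ASNS in vehicle stood at 126 ± 33.5 CPM after recovery and 51.0 ± 7.04 CPM at 24 h.

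Of the 77 genes called higher, 47 were in at least 1 list and 30 in none, and of the 45 called lower, 9 and 36. Of the 118 called genes with a RefSeq position, 22 overlap another tested gene, so that reads of both could count for either. LOXL1-AS1, an antisense transcript at -0.90 ± 0.18, and LOXL1 at -0.97 ± 0.44 are such a pair, and LOXL1-AS1 was called in 3 of the 6 fits that left out 1 library.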

How the data were processed

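RNA-seq was read in HMC3 cells at 25 µM PFOS or vehicle for 24 h (3 libraries each). Per the labels' protocols, RNA was poly(A)-selected and amplified by Smart-seq2, a full-length method that carries no molecular identifiers, so floors in counts cover counting error only, while each SE includes the spread between libraries. The authors deposited raw counts per gene symbol in 1 table, and 0 columns were left without a sample. Trimmomatic, STAR, DESeq2 and MACS2, with GRCh38 and hg38, are named, without versions, per the submitters' processing notes. For the counting tool and the strand setting nothing is stated in the labels. The CUT&Tag libraries were not used here.

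Counts were fitted with edgeR 4.0.16 in R 4.3.3. Genes passed filterByExpr (minimum count 10, 6 groups of 3), libraries were scaled by TMM, and all 18 RNA libraries entered a quasi-likelihood fit whose terms were the 6 groups. Two-sided p-values had Benjamini-Hochberg adjustment over the 9847 genes tested, at 0.05. The tested genes held 99.3% of the counts of the 6 libraries. Total counts were 882883 to 3679746. Replicates of a group differed by more than counting noise (chi-square per degree of freedom 1.36 to 4.5), so each was counted separately. DESeq2 1.42.0 and the other settings tried are in the closing section.

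Named genes were the 15 largest increases and decreases among called genes whose 3 and 3 libraries did not overlap in level and that reached a mean of 5 CPM at 25 µM or in vehicle, without clone-based or non-coding names, called members of 42 lists, and, where a list had none, its 2 highest members. The members and lists were chosen with earlier results of these data known. Of the symbols, 95.3% matched RefSeq (GRCh38.p14), which gave positions and promoters. Older symbols are kept as in the table. A few genes that the rule named are not reported here.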

Additional observations from a re-analysis of the deposited data

Results flagged for a closer look

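ASNS was flagged because its response to 25 µM PFOS differed between the time points, tested as the interaction of treatment and time. Its 25 µM effect after recovery minus that at 24 h was -1.88 on the log2 scale (SE 0.28; edgeR adjusted p = 0.00534). SERPINE2 was flagged in the same way, with a difference of -1.43 (SE 0.18; edgeR adjusted p = 0.00147). In both, the 3 libraries at 25 µM lay above the 3 in vehicle at 24 h. Groups of 3 libraries are too small for the check of single libraries far from the others.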

How the results depend on the processing

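The number of called genes (122, of which 77 higher and 45 lower) depended most on which libraries shared the estimate of spread. It was 416 (234 and 182) with the 6 libraries alone, 375 (222 and 153) with the 9 at 24 h and 285 (164 and 121) without the 50 µM recovery group. The common biological coefficient of variation was 17.2% over 18 libraries, 9.9% over 6, 10.4% over 9 and 12.2% over 15. Thinning the 6 libraries to 882883 counts each left 67 (44 and 23), and leaving out 1 library left 49 to 75 (39 to 56 higher, 10 to 20 lower). Left-out fits that leave 2 libraries in a group share the spread of the others. DESeq2 called 149, and other scalings, filters and the robust fit 118 to 144.

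With the replicate number as a block, 89 genes were called, 27 of them lower, and 446 (244 and 202) with the block in the 6 libraries alone. Same-numbered 25 µM and vehicle libraries did not deviate together over all tested genes (correlations -0.0428, 0.0386 and -0.0245). Such deviations hold counting noise at these depths, so they cannot show whether same-numbered libraries share a culture or day.

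For 50 against 25 µM, 347 to 541 genes were called when 1 library was left out, and for the recovery difference DESeq2 called 37 in place of 2. Over 94 called and 16 uncalled genes taken by the naming rule or chosen later, 0 of 1969 alternative values changed sign. Of these values, 322 lost the call and 49 gained one. The cause was not tested. At these depths 3 counts are 0.809 to 3.53 CPM, which limits genes of low level.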
